A study of Mus musculus with 48 samples.

Results

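Differentiated C2C12 muscle cells stretched for 6 h were compared with non-stretched differentiated cells of the same time point. The comparison rests on 8 of the 48 libraries of the series, 4 stretched and 4 non-stretched, chosen by their labels alone, and covers every gene of the count table with enough counts to test, which were 15433 of 47480 gene symbols. C2C12, an established cell line, consists of mouse myoblasts, which leave the cell cycle, fuse and build sarcomeres once serum is withdrawn. The labels name no transgene and no drug. Both groups had differentiated on flexible plates coated with collagen I, and the stretched group was pulled equally along both axes of the plate in repeated cycles with the Flexcell system. Replicates 7 and 8 of each group carry the experiment code B25 in their titles and replicates 9 and 10 carry B28. The study's methods describe separate samples from independent experiments, but for differentiated cells they name more experiments than the codes seen in these titles. They do not say what separated samples of one experiment, so p-values measure the spread between these libraries, which may be technical in part. The sample labels name nuclear RNA as the molecule, whereas the methods describe extraction from whole cells.

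Stretched muscle cells are known to signal through stress kinases within minutes and to transcribe immediate early genes such as Fos and Egr1. Other programs were examined here as well, chosen with earlier results of these data known. One is cholesterol synthesis, whose enzymes are transcribed together by the SREBP factors when sterol in the endoplasmic reticulum (ER) is low. Others are the chaperones of the cytosol, induced by heat shock factors, and those of the ER lumen, induced by the unfolded protein response through a conserved promoter element. SR proteins, a family of splicing factors with arginine and serine repeats, and the kinases that phosphorylate them are a further group of interest in this study.

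After 6 h of stretching, 80 genes were upregulated (0.518% of the genes tested) and 235 were downregulated (1.52%) where a call required both an adjusted p under 0.05 (edgeR) and a log2 change of 0.58 or more. With the adjusted p alone, 1772 genes rose (11.5%) and 1666 fell (10.8%). The stretched and non-stretched libraries did not overlap in 2130 genes that were higher (13.8%) and 1905 that were lower (12.3%). The upregulated genes included 61 that code for protein by the annotation and the downregulated ones 195, a share of 76.2% and 83.0% against 82.5% of all genes tested. Counts were low for many of them, with a mean under 100 in 41 of the upregulated and 137 of the downregulated genes. In each of the 2 experiments all 80 upregulated genes were higher and 233 of the 235 downregulated genes were lower, as the selection on all 8 libraries favours. With the 4 libraries of B28 alone no gene passed the adjusted threshold of edgeR, although 3180 genes had an unadjusted p under 0.05, and with the 4 of B25 alone 125 genes were upregulated and 346 downregulated.

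The libraries were alike in depth, with 57705804 to 63386650 counts when not stretched and 58227373 to 62039745 when stretched. Myog, Ckm, Acta1, Myh3, Tnnt1, Mef2c and Tmem8c, which mark differentiated muscle, were abundant in all 8 libraries. Their summed level was 10932 to 11552 CPM (counts scaled to a common library size) in non-stretched and 10000 to 10865 CPM in stretched cells. The sums of the groups did not overlap and all 7 genes were lower in stretched cells, but none of the 7 passed the test (-0.16 to -0.03). Markers of undifferentiated or cycling myoblasts (Pax7, Myf5, Mki67, Top2a and Ccnb1) summed to 219 to 308 CPM and 242 to 279 CPM. Of 5 adipocyte, 5 bone or cartilage, 4 endothelial and 4 blood cell markers, 4, 3, 3 and 2 stayed under 10 counts in every library. Bulk RNA cannot tell fewer cells of a type from less RNA per cell.

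The enzymes of cholesterol synthesis formed the most uniform group among the upregulated genes. All 20 members tested were higher in stretched cells and 19 of them rose at an adjusted p under 0.05 by edgeR, from acetyl-CoA condensation (Acat2, Hmgcs1) through the mevalonate steps (Mvk, Mvd) to the sterol reductase Dhcr7. The median log2 fold change was 0.52, against -0.00012 over all genes tested, and none of the 20 fell. Ebp, a sterol isomerase, was the member that did not pass (0.09 ± 0.05, SE, adjusted p = 0.21). The libraries of both groups were separate in 19 of the 20 genes, and leaving out any 1 library left 18 to 20 members past the threshold.

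Hmgcs1, which makes HMG-CoA (mm10 chr13:119690379-119708260), measured 341, 342, 389 and 374 CPM in the non-stretched libraries of replicates 7, 8, 9 and 10 and 530, 572, 545 and 589 CPM in the stretched ones. Every stretched library was above every non-stretched one, and the log2 fold change was 0.63 ± 0.05 (SE, adjusted p = 0.00016). Idi1, the isomerase that supplies prenyl units, measured 185, 185, 224 and 205 CPM against 334, 338, 331 and 358 CPM. Its log2 fold change was 0.77 ± 0.06 (adjusted p = 0.00015), 0.86 within B25 and 0.68 within B28. Acat2 reached the same size (0.77 ± 0.08, adjusted p = 0.00045), with 43.8% of its 31-base sequence stretches also present in other genes. Mvd, Msmo1, Nsdhl and Hsd17b7 were also upregulated, with log2 fold changes of 0.58 to 0.69. Sqle, the squalene epoxidase, rose by 0.55 ± 0.04 from 210, 211, 232 and 221 CPM to 311, 328, 310 and 335 CPM.

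**Figure D1:**
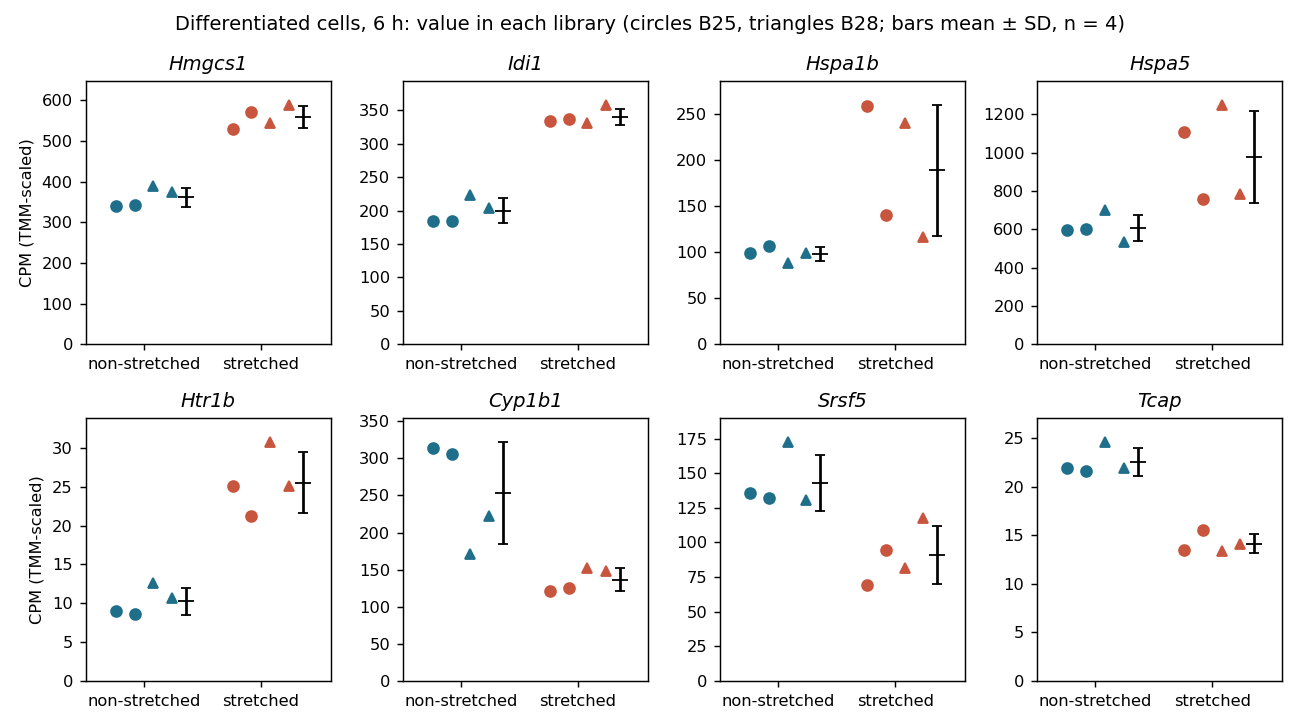
Level of 8 genes in each library of differentiated cells at 6 h, in CPM on axes that start at 0. Points are libraries (circles, experiment B25; triangles, B28) and bars are the mean ± SD of 4 libraries. Hmgcs1 and Idi1 were high in all 4 stretched libraries, whereas the stretched values of Hspa1b ran from 116 to 258 CPM and those of Hspa5 from 761 to 1250 CPM.

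The promoter of Hmgcs1 is shown because it was the 1 promoter of the pathway that held the core of the sterol regulatory element, searched as TCACNCCAC on both strands in the 250 bases before the start site. RefSeq promoters on GRCm38.p6 were matched for 15 of the 20 genes, so the core was present in 6.67% of them, against 1.22% of all 27025 genes with a promoter. The core was found in 0 of 11 promoters of the genes that control or use sterol, described next. The element occurs in several forms, and other forms were not searched. Capitals mark the core in the 250 bases at chr13:119690101-119690350 on the plus strand, printed 5′ to 3′.
Hmgcs1: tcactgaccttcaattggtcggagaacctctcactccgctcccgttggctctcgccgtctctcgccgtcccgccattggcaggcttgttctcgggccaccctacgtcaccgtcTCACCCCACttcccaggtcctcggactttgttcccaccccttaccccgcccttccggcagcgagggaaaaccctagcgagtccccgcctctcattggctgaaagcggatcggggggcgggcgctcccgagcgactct

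Genes that control or use sterol varied more. Of the 16 tested, 3 rose and 2 fell, where 11.5% of all genes tested rose and 10.8% fell, and the median was 0.04. Insig1, which retains the SREBP escort protein in the ER, rose by 0.57 ± 0.09, and Stard4, a cytosolic sterol carrier, by 0.55 ± 0.05. Mylip, a ubiquitin ligase induced by sterols, fell by 0.29 ± 0.05. Abca1, which exports cholesterol, was downregulated (-0.80 ± 0.19, adjusted p = 0.014) at 4.998, 4.45, 3.11 and 3.999 CPM against 1.98, 2.02, 3.39 and 2.13 CPM. Its groups overlapped, since stretched replicate 9 lay above non-stretched replicate 9.

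Fatty acid synthesis moved with sterol synthesis but by less. Of 14 genes tested 8 rose and none fell, with a median log2 fold change of 0.18. Elovl6, which elongates palmitate, was upregulated (0.59 ± 0.06, adjusted p = 0.00038), and Acly, the enzyme that makes cytosolic acetyl-CoA, rose by 0.55 ± 0.04 from 245, 261, 264 and 271 CPM to 368, 375, 396 and 380 CPM. Scd2, a desaturase, rose by 0.42 ± 0.07 from 2277, 2312, 2728 and 2743 CPM to 3155, 3203, 3569 and 3533 CPM. Fasn rose by 0.38 ± 0.11, with 0.13 within B25 and 0.62 within B28. Lrp8, a lipoprotein receptor, was upregulated by the same amount in both experiments (0.77), from 15.2, 15.1, 16.5 and 14.4 CPM to 26.7, 24.9, 27.9 and 24.9 CPM.

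Cytosolic chaperones rose as a second group. Of 19 genes tested, 14 rose and none fell, with a median log2 fold change of 0.35, and 12 to 15 passed when any 1 library was left out. The list also holds the mitochondrial chaperonin genes Hspd1 and Hspe1 and the factors Hsf1 and Hsf2. Hspa1b, the inducible HSP70 (mm10 chr17:34956436-34959238), measured 98.9, 107, 87.7 and 98.9 CPM in the non-stretched libraries and 258, 140, 239 and 116 CPM in the stretched ones. The stretched libraries were all higher, and those of replicates 7 and 9 were well above those of 8 and 10. The log2 fold change was 0.94 ± 0.22 (adjusted p = 0.012), and 68.0% of the gene's 31-base stretches also occur in other genes, so its reads could be split with a near copy such as Hspa1a, which did not pass (0.29 ± 0.12). Hsph1, a nucleotide exchange factor for HSP70, rose by 0.89 ± 0.17 from 169, 165, 161 and 168 CPM to 393, 237, 374 and 220 CPM, in the same order of libraries. Hsp90aa1, Dnajb1 and the mitochondrial chaperonin gene Hspd1 were also upregulated, by 0.58 to 0.70. Hspa8, the constitutive HSP70, rose by 0.51 ± 0.09 from 1704 ± 56.3 to 2431 ± 359 CPM, with 43.5% of its stretches shared. Hsf1, the heat shock transcription factor, did not pass (0.02 ± 0.04, adjusted p = 0.78).

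The chaperones and folding enzymes of the ER rose too, with 18 of 22 past the threshold, none lower and a median log2 fold change of 0.36. Hspa5, the ER lumenal HSP70 known as BiP, measured 594, 599, 702 and 534 CPM against 1108, 761, 1250 and 787 CPM. All stretched libraries were higher and replicates 7 and 9 were again above 8 and 10, with a log2 fold change of 0.68 ± 0.15 (adjusted p = 0.0096). Sdf2l1, an ER protein that works with BiP, was upregulated by 0.78 ± 0.22 (adjusted p = 0.027), and its stretched replicate 10 at 12.8 CPM lay below non-stretched replicate 9 at 13.9 CPM. It no longer passed when stretched replicate 7 or 9 or non-stretched replicate 7, 8 or 10 was left out (adjusted p = 0.062 to 0.078 by edgeR). Creld2 and Hyou1 rose by 0.55 ± 0.13 and 0.48 ± 0.12. The sensors Atf6 (0.03 ± 0.03) and Ern1 (0.03 ± 0.05) did not pass, and the third sensor, Eif2ak3, rose by 0.17 ± 0.04. The number of ER genes past the threshold depended on single libraries, with 9 left when non-stretched replicate 7, non-stretched replicate 8 or stretched replicate 7 was dropped, 10 without non-stretched replicate 10 and 11 without stretched replicate 9.

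In Hspa1b, Hsph1 and Hspa5 the same 2 stretched libraries, replicate 7 of B25 and replicate 9 of B28, had the highest values. Stretched replicates 7 and 9 had 62039745 and 58227373 counts, against 58244054 and 61651393 in stretched replicates 8 and 10.

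The ER stress element is shown because 8 promoters of this group held it. The element was searched as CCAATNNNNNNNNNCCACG on both strands in the 250 bases before the start. It was present in 8 of the 19 ER genes with a RefSeq promoter (42.1%) and in 0.13% of all genes with a promoter. The sites are given in the orientation of the element, with the fixed letters in capitals.
Hspa5, chr2:34772025-34772043: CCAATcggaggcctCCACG
Hsp90b1, chr10:86705638-86705656: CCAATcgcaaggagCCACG
Hsp90b1, chr10:86705533-86705551: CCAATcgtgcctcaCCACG
Calr, chr8:84847075-84847093: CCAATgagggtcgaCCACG
Canx, chr11:50325800-50325818: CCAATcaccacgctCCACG
Creld2, chr15:88819520-88819538: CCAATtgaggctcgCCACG
Dnajc3, chr14:118937827-118937845: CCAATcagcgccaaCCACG
Pdia6, chr12:17266491-17266509: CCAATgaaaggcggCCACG
Syvn1, chr19:6046532-6046550: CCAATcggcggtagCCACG
Of these 8 genes 7 rose, by 0.25 (Canx) to 0.68 (Hspa5), and Pdia6, a disulfide isomerase, did not pass (0.23, adjusted p = 0.11 by edgeR). In the list as a whole, with or without the element, 18 of 22 rose. The whole window is given for Creld2, where the element lies in reverse orientation at chr15:88819396-88819645 on the plus strand.
Creld2: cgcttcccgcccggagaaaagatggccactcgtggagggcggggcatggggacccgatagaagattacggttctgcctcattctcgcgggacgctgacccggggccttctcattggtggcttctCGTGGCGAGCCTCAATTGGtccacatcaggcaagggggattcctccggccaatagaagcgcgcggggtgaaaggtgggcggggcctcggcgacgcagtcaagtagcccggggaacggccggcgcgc
The heat shock element, searched as GAANNTTCNNGAA, was found for 2 of 14 genes of the cytosolic chaperone list with a promoter. That is 14.3%, against 0.514% of all genes with a promoter. Both were the mitochondrial chaperonin genes, Hspd1 and Hspe1, which start close together on opposite strands and share the same pair of matches.

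Ddit3, a transcription factor of the integrated stress response also known as CHOP, was among the largest rises. It measured 14.7, 14.8, 17.7 and 16.3 CPM without and 27.7, 25.4, 38.5 and 33.3 CPM with stretching, a log2 fold change of 0.97 ± 0.12 (adjusted p = 0.00070) with 0.85 in B25 and 1.08 in B28. Of 22 tested genes of the ATF4 group, 4 rose (Atf4, Ddit3, Ddit4 and Slc7a11) and none fell, with a median of 0.08. Over all genes tested 11.5% rose and 10.8% fell.

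**Figure D2:**
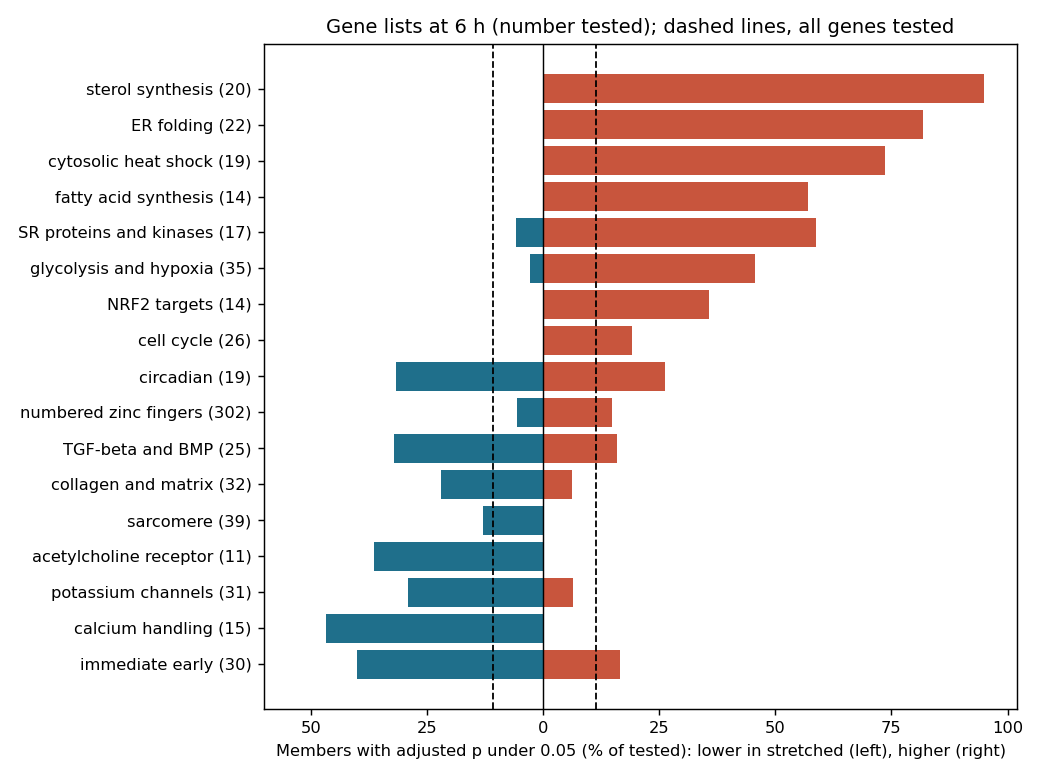
Share of the tested members of 17 gene lists with an adjusted p under 0.05 at 6 h, higher in stretched cells to the right and lower to the left, in percent of the members tested (number in brackets). Dashed lines are the shares over all genes tested, 11.5% higher and 10.8% lower. Sterol synthesis, ER folding and cytosolic heat shock reach farthest to the right, and among the lists drawn calcium handling and immediate early genes reach farthest to the left. Some lists are not drawn, among them that of the aryl hydrocarbon receptor, its partner and its targets (3 of 7 lower at an adjusted p under 0.05).

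Among upregulated genes that averaged 100 counts or more and whose groups were separate, the largest rise was that of Htr1b, a serotonin receptor coupled to inhibitory G proteins (mm10 chr9:81628291-81633828). It measured 9.06, 8.65, 12.5 and 10.7 CPM in non-stretched and 25.05, 21.2, 30.8 and 25.04 CPM in stretched cells. The groups were far apart, with a log2 fold change of 1.32 ± 0.13 (adjusted p = 0.00031) and 1.38 and 1.27 within B25 and B28. None of the other 4 serotonin receptors tested passed, at -0.43 to -0.08. Ak4, a mitochondrial adenylate kinase, rose by 1.18 ± 0.10 from 2.96, 2.84, 2.99 and 2.27 CPM to 6.399, 6.82, 6.26 and 5.598 CPM. Tubb3, a beta tubulin best known from neurons, rose by 0.82 ± 0.06 from 46.3 ± 4.79 to 81.4 ± 2.23 CPM, with no overlap. Banp, a nuclear matrix protein that binds promoters rich in CpG, measured 23.9, 24.5, 24.1 and 25.01 CPM and 56.7, 41.9, 56.0 and 38.1 CPM. Its log2 fold change was 0.98 ± 0.12 (adjusted p = 0.00064), and stretched replicates 7 and 9 stood above 8 and 10 as in Hspa1b. Gm13502, an annotated pseudogene, rose by 0.80 ± 0.11, but every 31-base stretch of it (100%) is also found elsewhere in the transcriptome, which makes its count uncertain.

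Hypoxia and glycolysis genes rose in part. Of 35 tested, 16 rose and 1 fell (Pfkm, the muscle phosphofructokinase, by 0.19 ± 0.04), with a median of 0.14. Ak4 and Ankrd37, both induced in hypoxia, were the 2 upregulated members. Slc2a1, a glucose transporter, rose by 0.30 ± 0.04, Pfkfb3 by 0.49 ± 0.07 and Ndrg1 by 0.41 ± 0.06, whereas Vegfa (0.12) and Car9 (0.09), among the best known hypoxia targets, did not pass. Txnip, which restrains glucose uptake, was downregulated from 66.1, 63.0, 53.1 and 61.7 CPM to 31.8, 34.5, 35.1 and 37.2 CPM, a log2 fold change of -0.82 ± 0.07 (adjusted p = 0.00016). The 2 groups were clearly separate, with -0.96 in B25 and -0.67 in B28. Pdk4, the kinase that shuts off pyruvate dehydrogenase, fell by 0.43 ± 0.05, and Plin2, which coats lipid droplets, rose by 0.35 ± 0.04. Metallothioneins Mt1 and Mt2, which bind zinc and copper, rose by 0.41 ± 0.07 and 0.60 ± 0.07. Of 14 genes of the NRF2 list, which is not limited to targets, 5 rose and none fell. Those that rose were Hmox1 (0.28 ± 0.05), Gsr, G6pdx, Slc7a11 and the NRF2 inhibitor Keap1. Over all genes tested 11.5% rose and 10.8% fell.

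Among the falls, Cyp1b1 and Ahrr, targets of the aryl hydrocarbon receptor, stood out but differed between experiments. Cyp1b1, a cytochrome P450 (mm10 chr17:79701537-79715061), measured 314, 306, 171 and 222 CPM in non-stretched and 121, 125, 153 and 148 CPM in stretched cells. The non-stretched libraries of B25 were the highest, and the log2 fold change of -0.89 ± 0.17 (adjusted p = 0.0049) was -1.34 within B25 and -0.39 within B28. Ahrr, the receptor's repressor, measured 8.60, 8.25, 4.21 and 5.22 CPM against 2.32, 2.40, 3.69 and 3.89 CPM, a log2 fold change of -1.09 ± 0.25, with -1.84 within B25 and -0.32 within B28. Cyp1a1 followed the same libraries at 3.03, 3.07, 0.19 and 0.74 CPM against 0.29, 0.54, 0.48 and 0.58 CPM and did not pass (adjusted p = 0.072). Ahr itself fell in both experiments, by 0.54 and 0.34, from 61.4, 60.9, 57.3 and 57.6 CPM to 40.3, 43.7, 46.2 and 44.7 CPM. The list holds Ahr and its partner Arnt as well as targets. Of its 7 genes all were lower and 3 passed (Cyp1b1, Ahrr and Ahr), with Tiparp (-0.01) and Nqo1 (-0.07) near 0. Without non-stretched replicate 9 the number that passed was 5. The part of the difference between non-stretched libraries of the 2 codes in these falls was not tested.

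The promoter of Ahrr is shown because, of 6 genes of the list with a promoter, it alone held the core TNGCGTG of the xenobiotic response element. Of all genes with a promoter, 4.76% held this core. Capitals mark the match in the 250 bases at chr13:74292332-74292581, read on the minus strand.
Ahrr: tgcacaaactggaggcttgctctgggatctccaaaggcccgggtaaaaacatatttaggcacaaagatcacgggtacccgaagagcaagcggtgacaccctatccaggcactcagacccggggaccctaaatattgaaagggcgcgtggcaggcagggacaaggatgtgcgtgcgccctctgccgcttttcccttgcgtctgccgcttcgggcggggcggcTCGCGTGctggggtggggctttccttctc

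**Figure D3:**
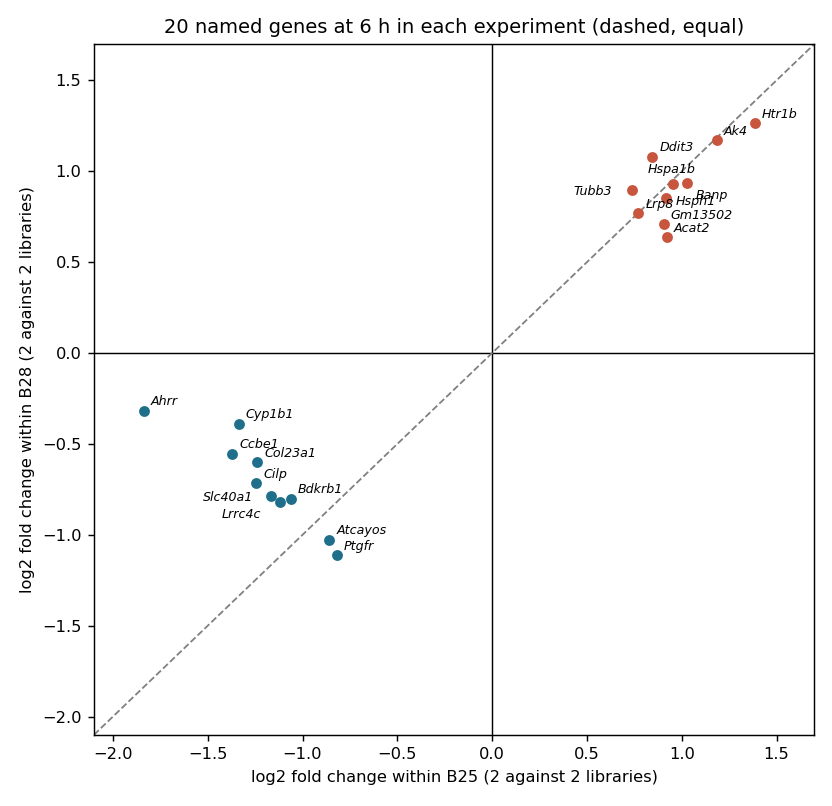
Log2 fold change of the 10 largest rises and 10 largest falls within experiment B25 (horizontal axis) and within B28 (vertical axis), each from 2 stretched and 2 non-stretched libraries. The genes were chosen on all 8 libraries, so that they share a direction was favoured by the choice. Ahrr and Cyp1b1 lie far from the dashed line of equality, at -1.84 and -1.34 in B25 against -0.32 and -0.39 in B28.

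Besides Cyp1b1 and Ahrr, 8 genes made up the 10 largest falls by the same limits on counts and overlap. Slc40a1, the iron exporter ferroportin, measured 17.3, 15.7, 16.6 and 17.9 CPM without and 6.90, 7.88, 9.59 and 10.4 CPM with stretching (-0.96 ± 0.11, adjusted p = 0.00054). Cilp, a matrix protein of cartilage and heart, fell from 17.9, 17.4, 18.6 and 14.3 CPM to 7.20, 7.71, 11.003 and 9.07 CPM (-0.96 ± 0.12). Both genes were lower in every stretched library. Bdkrb1, a bradykinin receptor, measured 3.71, 5.03, 3.38 and 2.92 CPM against 1.76, 2.45, 1.62 and 1.98 CPM (-0.94 ± 0.18), and Ptgfr, the prostaglandin F receptor, fell by 0.96 ± 0.13. Ccbe1, an extracellular protein of lymphatic growth, fell by 0.95 ± 0.14, with -1.37 in B25 and -0.55 in B28. Lrrc4c (-0.96 ± 0.17), Col23a1 (-0.93 ± 0.14) and the antisense transcript Atcayos (-0.94 ± 0.13) were the others. Of 32 collagen and matrix genes tested 7 fell and 2 rose, with a median of -0.07, and Col6a1 and Col6a2 fell by 0.34 ± 0.06 and 0.35 ± 0.07. Thbs1, a matrix glycoprotein that activates TGF-beta, fell by 0.32 ± 0.09, by 0.56 within B25 and 0.09 within B28. Of 24 integrin and focal adhesion genes 3 fell and 2 rose, near the shares of all genes (10.8% and 11.5%). The collagen-binding integrins Itga1 and Itga11 were downregulated at low levels (-0.60 ± 0.15 and -0.61 ± 0.19). Itga11 no longer passed when any 1 of non-stretched replicates 9 and 10 and stretched replicates 7, 8 and 10 was left out (adjusted p = 0.070 to 0.11 by edgeR). Of 25 genes of TGF-beta and BMP signaling 8 fell and 4 rose. All 3 TGF-beta ligands (Tgfb1, Tgfb2 and Tgfb3) and Bmp4 fell, by 0.15 to 0.41, while Grem1, which blocks BMPs, rose by 0.37 ± 0.06.

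Immediate early genes were more often lower than higher at 6 h. Of 30 tested, 12 fell and 5 rose, with a median log2 fold change of -0.12. Egr1 measured 205, 200, 191 and 187 CPM without and 124, 149, 123 and 152 CPM with stretching (-0.51 ± 0.07, adjusted p = 0.0013). Egr3 fell by 0.55 ± 0.05, Junb by 0.46 ± 0.06 and Fos by 0.43 ± 0.11, each without overlap, and Egr2 was downregulated (-0.61 ± 0.13). Fosl1, a later partner of Jun, was the upregulated member, from 12.8, 12.4, 12.0 and 11.1 CPM to 17.4, 18.7, 18.4 and 19.5 CPM (0.61 ± 0.05, adjusted p = 0.00019). Maff, Klf6, Atf3 and Nr4a2 also rose, by 0.22 to 0.43. With all 24 libraries of differentiated cells in one model 3 members fell and 3 rose. Of the targets of YAP, a sensor of tension, Ctgf did not pass at this time, at 63.8, 67.1, 113 and 63.2 CPM against 65.4, 71.9, 70.2 and 79.5 CPM (-0.10 ± 0.17, adjusted p = 0.71). Of the 13 tested genes of the YAP list, which is not limited to targets, 3 rose (Lats2, Tead4 and Wwtr1, by 0.10 to 0.16). Over all genes tested 11.5% rose.

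Among muscle genes the falls were small. Of 39 sarcomere genes 34 were lower in stretched cells, where 7720 of all 15433 genes tested were lower, and the median was -0.09. The 5 that fell at the threshold were near the share of all genes that fell (10.8%). Tcap, which caps titin at the Z-disc (mm10 chr11:98383811-98384953), was downregulated from 21.9, 21.6, 24.6 and 21.9 CPM to 13.5, 15.5, 13.4 and 14.1 CPM (-0.67 ± 0.06, adjusted p = 0.00019). Actn2, Mybpc2, Myom1 and Myom3 fell by 0.22 to 0.44. The number of sarcomere genes that passed was 3 when non-stretched replicate 7, non-stretched replicate 8 or stretched replicate 9 was dropped, and 9 without non-stretched replicate 10. Of 15 calcium handling genes 7 fell, against the same 10.8% of all genes, and none rose (median -0.17), among them the pump Atp2a1 (-0.29 ± 0.08) and Stac3, which couples the calcium channel of the membrane to release (-0.27 ± 0.07), and 3 passed without non-stretched replicate 8. Of 11 acetylcholine receptor and junction genes 4 fell (Chrng, Musk, Dok7 and Agrn, by 0.14 to 0.22) and none rose.

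Among myogenic regulators, Myf5, the factor of the undifferentiated state, rose from 20.7, 21.9, 20.2 and 23.3 CPM to 30.4, 28.5, 33.5 and 30.3 CPM (0.51 ± 0.06, adjusted p = 0.00056), in every stretched library. Myod1 (-0.09 ± 0.04) and Myog (-0.14 ± 0.06) did not pass. Gm7325, the earlier symbol of the fusion gene myomixer, fell from 76.5, 83.9, 88.8 and 75.5 CPM to 61.8, 66.3, 58.3 and 60.6 CPM (-0.39 ± 0.06, adjusted p = 0.0016), whereas Tmem8c, its partner myomaker, did not pass (-0.03 ± 0.06). The inhibitors Id1, Id2 and Id3 fell by 0.26 to 0.60, and Mef2d fell by 0.13 ± 0.03. Potassium channel genes fell more often than they rose, with 9 of 31 lower and 2 higher. Kcnc2 (-0.74) and Kcnj16 (-1.97, at a mean of 22 counts) were downregulated and Kcnk13 was upregulated (0.63 ± 0.12).

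The SR proteins and their kinases moved in both directions. Of 17 tested, 10 rose and 1 fell, with a median of 0.16. Srsf5 (mm10 chr12:80945504-80950507) was the downregulated member, at 136, 132, 173 and 131 CPM without and 68.9, 94.7, 81.3 and 118 CPM with stretching. All stretched libraries were lower, those of replicates 7 and 9 the most, and the log2 fold change was -0.66 ± 0.15 (adjusted p = 0.010), with 14.1% of its stretches shared with other genes. Srsf10, Srsf2, Srsf7 and Srsf1 rose by 0.26 to 0.35, and Srsf3 and Srsf9 by 0.21 and 0.12. The kinases Clk1, Clk3, Clk4 and Srpk1 rose by 0.16 to 0.22, and Srsf4 (-0.00 ± 0.03) and Srsf6 (-0.00 ± 0.07) did not pass. The number that rose was 6 when non-stretched replicate 7, non-stretched replicate 8 or stretched replicate 7 was dropped.

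Smaller groups are given beside the 11.5% of all genes tested that rose and the 10.8% that fell. Of 19 circadian genes 5 rose and 6 fell, with Arntl at 0.32 ± 0.04 and its output Dbp at -0.53 ± 0.10. Of 26 cell cycle genes 5 rose and none fell, the largest being Ccnd2 (0.35 ± 0.06). Of 15 genes of the lysosome list, which also holds regulators, 4 rose. These were Flcn, Fnip1, Fnip2 and the autophagy receptor Sqstm1 (0.27 ± 0.04). Lamp1, Lamp2, Ctsb and Ctsd, which code for proteins of the lysosome itself, did not pass. Numbered zinc finger genes rose in 45 and fell in 17 of 302 tested, with a median of 0.06, and the related Zbtb genes in 7 and 3 of 38. The Wnt and Notch lists fell in 4 of 19 and 3 of 13 members and rose in none. Nkd2, a Wnt inhibitor, was downregulated with -1.18 in B25 and -0.12 in B28, and no longer passed without replicate 7 or 8 of either group (adjusted p = 0.060 to 0.070 by edgeR). Of 18 genes of the FoxO and atrophy list 2 rose and 3 fell, which is near the shares of all genes, with Foxo1 lower by 0.20 ± 0.04. Klf15 was the upregulated member, and the highest log2 fold change of the list was 0.91. No transcripts of the mitochondrial genome are listed in the table.

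The 6 h effect was set against the effects at 1 h and 3 h, each of which has non-stretched cells of its own, with an interaction term in one edgeR model of all 24 libraries of differentiated cells. Against 3 h, the stretch effect was more positive at 6 h in 136 genes (0.836% of 16266 tested) and more negative in 234 (1.44%), and against 1 h in 187 (1.15%) and 220 (1.35%). With the adjusted p alone these were 1130 (6.95%) and 822 (5.05%) against 3 h and 1094 (6.73%) and 834 (5.13%) against 1 h. The stretched group at 1 h includes 1 library, replicate 4, that is the only one of its experiment. At 3 h 138 genes were upregulated (0.890% of 15513 tested) and 115 downregulated (0.741%), and at 1 h 14 (0.0901% of 15538) and 28 (0.180%). Of the 80 genes upregulated at 6 h 9 were also upregulated at 3 h and none at 1 h, and of the 235 downregulated 15 were also downregulated at 3 h, 3 were upregulated there and none was downregulated at 1 h.

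The groups reached their 6 h levels at different times. Sterol synthesis had the same median effect at 3 h (0.50) as at 6 h and almost none at 1 h (0.02), with 0 of its 20 genes different between 6 h and 3 h and 13 more positive at 6 h than at 1 h. Hmgcs1, for one, had a log2 fold change of 0.77 at 3 h (adjusted p = 0.00028) and -0.03 at 1 h. Cytosolic chaperones had medians of 0.01 at 3 h and 0.04 at 1 h, and 14 of 19 were more positive at 6 h than at 3 h. Hsph1 differed by 1.01 between 6 h and 3 h (adjusted p = 0.00061) and Hspa1b by 0.96 (adjusted p = 0.0064). ER folding genes had medians of 0.04 at both earlier times, with 9 of 22 more positive at 6 h than at 3 h and 9 than at 1 h. Immediate early genes went the other way, with medians of 0.68, 0.20 and -0.12 at the successive times, and 16 of 30 were more negative at 6 h than at 1 h, Fosb by -4.201 and Fos by -3.19.

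**Figure D4:**
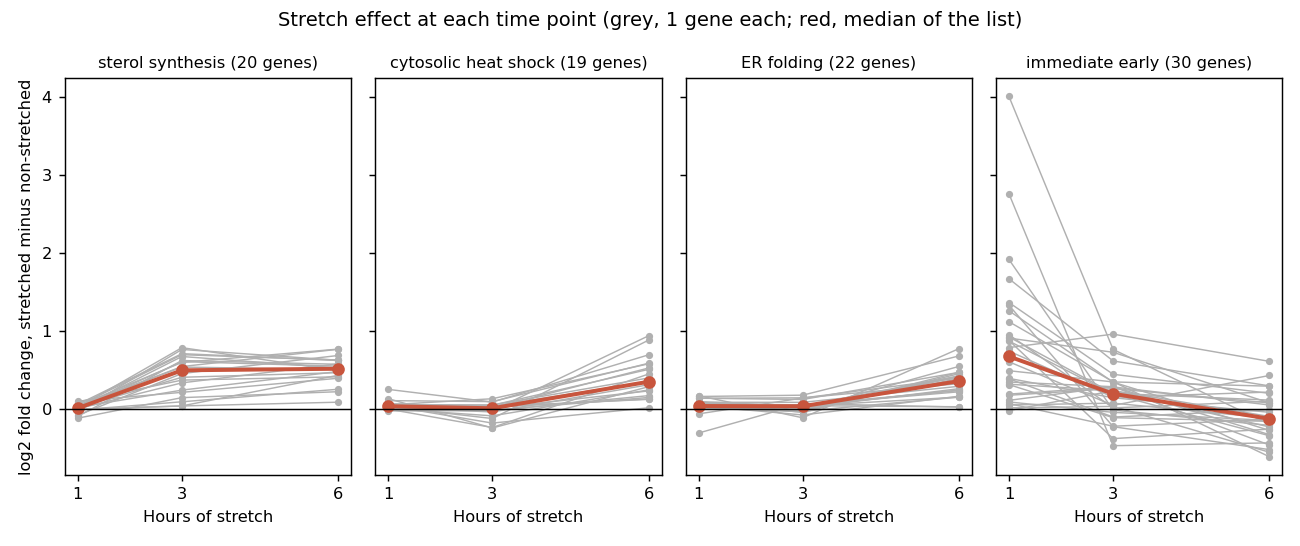
Log2 fold change, stretched minus non-stretched, of the genes of 4 lists at 3 durations of stretch, in hours (grey, 1 gene each; red, median of the list), each time with its own non-stretched cells. The median of sterol synthesis is 0.02, 0.50 and 0.52, that of heat shock and of ER folding leaves 0 at 6 h, and that of immediate early genes falls from 0.68 to -0.12.

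Several genes reversed between 3 h and 6 h. Srsf5 rose by 0.55 at 3 h (adjusted p = 0.0030) and fell at 6 h, a difference of -1.20 (adjusted p = 0.00015). Bdkrb1 was higher at 3 h (0.48, adjusted p = 0.0030) and lower at 6 h, and Banp lower at 3 h (-0.37, adjusted p = 0.021) and higher at 6 h. The RNA-binding genes Cirbp and Rbm3, which are induced by mild cold, did not pass at 6 h (-0.16 ± 0.07 and -0.08 ± 0.07) but rose at 3 h by 0.37 and 0.22, and both differed between the times (adjusted p = 0.0015 and 0.027). In Cirbp the stretched libraries of replicates 7 and 9 were the lowest, at 45.8 and 43.6 CPM against 52.1 and 56.3 CPM in replicates 8 and 10 and 54.1 to 56.4 CPM without stretching. Adamts16, a matrix protease, was higher at 3 h (0.77) and downregulated at 6 h (-0.64 ± 0.14). Htr1b differed by 1.08 from 3 h (adjusted p = 0.032), but that difference no longer passed when any 1 of 8 libraries of the 2 times was left out (non-stretched replicate 9 or 10 or stretched replicate 7 or 9 at 3 h, non-stretched replicate 7 or 8 or stretched replicate 7 or 9 at 6 h), at 0.97 to 1.09. Among the named genes with a numbered Zfp symbol, Zfp866 differed most from 1 h, at -1.22 at 1 h (adjusted p = 0.0019 by edgeR) and 0.11 at 6 h. Of 302 numbered zinc finger genes, 114 were more positive at 6 h than at 1 h and 6 more negative. Against 3 h, the largest differences among the named genes belonged to 2210418O10Rik, Gm8325 and Gm14296 (-7.90, -3.10 and 1.89), whose counts are uncertain because 100%, 82.2% and 61.5% of their 31-base stretches are not unique to them.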

How the data were processed

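RNA of C2C12 cells was sequenced as stranded mRNA libraries. The authors aligned reads with STAR and estimated counts per gene with Salmon on mm10, and deposited expected counts as whole numbers, not normalized. The members and the gene lists were chosen with earlier results of these data known.

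The 8 libraries of differentiated cells at 6 h were grouped by their labels and fitted in edgeR 4.0.16 (R 4.3.3, limma 3.58.1) with filterByExpr, TMM scaling and the quasi-likelihood test, adjusted by Benjamini-Hochberg over all genes tested. A call needed an adjusted p under 0.05 and a log2 change of 0.58 or more. CPM use TMM-scaled library sizes. Differences between times are interaction contrasts over the 24 libraries of differentiated cells. SE is the fold change divided by the root of F. Named genes are the 10 largest rises and falls among calls that averaged 100 counts or more and whose groups were separate, the 5 largest differences per direction and time, and list members. Some list members are counted but not reported by name here. The share of 31-base stretches found in other genes was counted on mm10 with GENCODE annotation, which matched 95.2% of symbols. Promoters are from RefSeq (GRCm38.p6).

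On simulated data 98.0% of 200 genes changed by a log2 of 1 were recovered at 6 h with 1 false call among 15454 genes. The simulation changed no gene of the lowest counts and held no smaller changes. It also held no difference between experiments, so recovery under those conditions was not tested. Alternatives were DESeq2 1.42.0, other scalings, filters and models, single experiments, and leaving out each library. Total counts per library were 57705804 to 63386650. Salmon spreads reads that match several genes among them, so genes with near copies are uncertain.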

Additional observations from a re-analysis of the deposited data

Results flagged for a closer look

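Both groups of 4 libraries were examined for 61 genes, which were the upregulated and downregulated members of the lists and the genes with the largest changes or differences between times. In 9 of 122 groups (7.38%) 1 library lay far from the other 3 by Dixon's criterion, which chance alone meets in about 1 group of 20. Among non-stretched libraries, replicate 9 stood apart in Ctgf (113 CPM against 63.2 to 67.1 CPM), in Gm8325 (1.75 against 9.67 to 10.8 CPM), in Srsf5 (173 against 131 to 136 CPM) and in Tcap (24.6 against 21.6 to 21.9 CPM), and replicate 10 in Id3 (19.5 against 13.6 to 14.0 CPM). Among stretched libraries, replicate 7 stood apart in Gm8325 (10.3 against 1.87 to 2.57 CPM) and Nsdhl (136 against 147 to 149 CPM), replicate 9 in Abca1 (3.39 against 1.98 to 2.13 CPM) and replicate 10 in 2210418O10Rik (3.95 against 0.018 to 0.39 CPM).

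The stretch effect at 6 h differed from that at 3 h by the interaction term (edgeR, adjusted p under 0.05) for 26 of the genes examined. It was more positive at 6 h for 16 genes, with differences on the log2 scale for Gm14296 (1.89), Klf15 (1.45), Banp (1.36), Trim65 (1.09), Htr1b (1.08), Map2k6 (1.03), Hsph1 (1.01), Hspa1b (0.96), Ak4 (0.90), Sdf2l1 (0.89), Ddit3 (0.70), Zfp108 (0.67), Dnajb1 (0.61), Kbtbd8 (0.60), Hsp90aa1 (0.49) and Hspd1 (0.45). It was more negative for 10 genes, 2210418O10Rik (-7.90), Gm8325 (-3.10), Bdkrb1 (-1.42), Adamts16 (-1.42), Aatk (-1.30), Atcayos (-1.22), Srsf5 (-1.20), Lrrc4c (-1.05), Cilp (-0.87) and Ccbe1 (-0.67).

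Against 1 h, the effect was more positive at 6 h for 26 genes, Gm14296 (1.99), Zfp866 (1.32), Zfp108 (1.21), Ak4 (1.19), Kbtbd8 (1.18), Htr1b (1.15), Ddit3 (1.15), Trim65 (0.95), Hspa1b (0.91), Ankrd37 (0.91), Banp (0.85), Hsph1 (0.85), Mvd (0.76), Idi1 (0.73), Acat2 (0.72), Hmgcs1 (0.66), Msmo1 (0.59), Mt2 (0.58), Nsdhl (0.57), Hsd17b7 (0.56), Tubb3 (0.55), Lrp8 (0.53), Hspd1 (0.52), Hspa5 (0.52), Hsp90aa1 (0.48) and Dnajb1 (0.44). It was more negative for 20 genes, 2210418O10Rik (-4.94), Fosb (-4.20), Fos (-3.19), Ctgf (-2.20), Ptgs2 (-2.18), Egr2 (-1.73), Ahrr (-1.57), Col23a1 (-1.47), Itga1 (-1.24), Id3 (-1.10), Srsf5 (-1.002), Lrrc4c (-0.98), Ccbe1 (-0.97), Atcayos (-0.95), Bdkrb1 (-0.92), Cyp1b1 (-0.91), Aatk (-0.90), Cilp (-0.86), Ptgfr (-0.75) and Slc40a1 (-0.65). The genes were chosen for their change at 6 h or for their difference, which favours large differences in the direction of the 6 h effect.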

How the results depend on the processing

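Counts of genes depended most on the fold change cutoff and on the experiment. Without the cutoff 1772 genes were upregulated and 1666 downregulated at 6 h, and testing against the cutoff itself (glmTreat) left 0 and 0, with 147 genes at an unadjusted p under 0.05. With B25 only, 125 genes were upregulated, and with B28 only 0 were upregulated and 0 downregulated, with 3180 genes at an unadjusted p under 0.05. With stretched replicates 8 and 10 only, chosen after seeing the data because the other two were highest in Hspa1b, Hsph1 and Hspa5, so that smaller changes in such genes follow from the choice, the counts were 35 and 77, of which 25 and 63 were among the 80 and 235. Genes that differed from 3 h numbered 2 by glmTreat and 1952 without the cutoff, and from 1 h 8 and 1928. Leaving out 1 library at a time gave 61 (without stretched replicate 9) to 93 upregulated and 159 (without stretched replicate 7) to 245 downregulated genes, 286 to 424 differences from 3 h and 328 to 532 from 1 h. DESeq2 gave 69 and 203, upper quartile scaling 65 and 276, no filter 81 and 225, a minimum of 10 counts 64 and 213, experiment as a covariate 89 and 246, and all 24 libraries in one model 89 and 258. Experiment as a covariate raised the sarcomere genes that fell from 5 to 9, and all 24 libraries in one model lowered the SR genes that rose from 10 to 6. The sign changed for Ctgf with B25 only (0.067) and when single libraries were left out (-0.19 to 0.15, positive without non-stretched replicate 9), for Cyp1a1 with B28 only (0.20), for Ptgs2 with B25 only (-0.21) and for Rbm3 with stretched replicates 8 and 10 only (0.039), none of which had passed at 6 h. The cause was not tested.

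No pairing of the libraries by replicate number was seen, though 4 pairs are too few to exclude it. The correlation of deviations of same-numbered libraries ran from -0.020 to 0.048, and 1 of the 4 numbers matched best with itself. With the replicate number as a block, 73 genes were upregulated and 200 downregulated, of which 61 and 189 were among the 80 and 235, and 8 sarcomere genes fell.

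Of the downregulated genes 137 had a mean under 100 counts, and there depth limits the precision.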

Other observations

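The following genes were chosen after their values were seen and belong to no list. Esr1, the estrogen receptor, measured 10.2, 10.03, 10.3 and 9.58 CPM in non-stretched and 6.09, 6.35, 6.52 and 5.99 CPM in stretched cells, which is -0.69 ± 0.06 on the log2 scale (adjusted p = 0.00015 by edgeR). Pdgfra, a growth factor receptor, changed by -0.66 ± 0.08 and Gas1, a membrane protein of growth arrest, by -0.60 ± 0.06. Igf1 changed by -0.59 ± 0.10 at 6 h and by 0.42 at 3 h, a difference of -1.01 (adjusted p = 0.00059). Medag measured 60.7, 59.0, 48.9 and 47.3 CPM without and 33.5, 35.7, 26.98 and 27.3 CPM with stretching. Bdkrb2, the second bradykinin receptor, had a log2 fold change of 0.49 at 3 h and -0.61 at 6 h, and its groups overlapped at 6 h.

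Igtp, Irgm2 and Gbp2, which code for interferon-inducible GTPases, were downregulated at low levels. Igtp measured 2.26, 2.34, 2.38 and 2.34 CPM against 1.45, 1.25, 1.32 and 1.24 CPM (-0.82 ± 0.10, adjusted p = 0.00065 by edgeR). Irgm2 changed by -0.71 ± 0.13 and Gbp2 by -1.25 ± 0.23, each with a mean under 100 counts. Their relatives Irgm1 and Gbp3 did not pass, with log2 fold changes of 0.00070 and -0.051.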
